A study of Mus musculus with 18 samples.

Results

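Glutamate receptors are the proteins through which neurons receive excitatory input. The genes described here encode the pore-forming subunits of AMPA, NMDA, kainate and delta receptors, the G protein-coupled metabotropic receptors, and the auxiliary proteins that traffic AMPA and kainate receptors and set their gating. They were chosen by symbol from the gene count table, which held 24015 genes, and 38 matched. Among these were 4 Gria, 7 Grin, 5 Grik, 2 Grid and 8 Grm genes. Added to them were 6 transmembrane AMPA receptor regulatory proteins (TARPs: Cacng2, Cacng3, Cacng4, Cacng5, Cacng7 and Cacng8). The rest were the cornichons Cnih2 and Cnih3, Neto1 and Neto2, and Shisa6 and Shisa9. The study sequenced RNA of tdTomato-positive neurons sorted from mouse cortex at postnatal day 5, about 25000 cells per sample, with 4 libraries in each of 3 groups. The groups were layer 6 neurons of Tbr1 null mice, layer 5 neurons of wild-type (WT) mice and layer 6 neurons of WT mice. TBR1 is a transcription factor of the T-box family made by neurons of the deep cortical layers. The labels call the mutant a layer 6 null and the series design calls it constitutive; the sources used here do not give the strain of these mice, the driver of tdTomato or the part of Tbr1 that is lost.

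AMPA receptors carry most of the fast current at excitatory synapses, and in cortex their GluA2 subunit keeps them impermeable to calcium. NMDA receptors open only with glutamate and depolarisation together, and their GluN2 and GluN3 subunits are exchanged as synapses mature. Kainate and metabotropic receptors modulate transmission on both sides of the synapse. Layer 6 corticothalamic neurons are glutamatergic, as are layer 5 projection neurons.

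Library totals were 41091165 to 47540669 counts for null layer 6, 27465597 to 39703820 for WT layer 5 and 32982957 to 54899002 for WT layer 6. Levels are given as CPM, counts relative to library size, scaled by TMM (a correction for library composition) over the 12 libraries. Tbr1 had 91.6 to 97.4 CPM in null, 40.2 to 45.7 CPM in WT layer 5 and 169 to 182 CPM in WT layer 6 libraries. The labels do not say whether each replicate is its own animal, so the p-values rest on the spread among these libraries alone, part of which may be technical. Libraries were most alike in pairs, replicates 1 with 2 and 3 with 4 in both layer 6 groups and 1 with 3 and 2 with 4 in layer 5. The chi-square per degree of freedom within pairs was 8.72 to 10.4 in null, 1.33 to 1.39 in WT layer 5 and 3.21 to 5.05 in WT layer 6. Across pairs it was 22.2 to 59.4, 2.94 to 3.35 and 10.6 to 19.2 in the same order. Layer 5 libraries thus differed least, and their small spread enters the p-values of the layer 5 comparisons. Xist, the RNA of the inactive X chromosome, had 262 to 299 CPM in null libraries and 39.5 to 41.1 CPM in layer 5 libraries, while WT layer 6 replicates 1 and 2 had 0.458 and 0.448 CPM and replicates 3 and 4 had 289 and 287 CPM. The summed level of 6 layer 6 markers, Tbr1 itself among them, was 295 to 331 CPM in null, 255 to 270.5 CPM in WT layer 5 and 536 to 593 CPM in WT layer 6. The 6 layer 5 markers summed to 258 to 265 CPM in WT layer 5 and 499 to 553 CPM in WT layer 6, so the libraries labelled layer 5 were lower for the list of their own layer, with 1 of the 6 markers higher (Rbp4, at 2.19 ± 0.115 against 1.04 ± 0.389 CPM) and 5 lower.

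In neurons of the Tbr1 null, 16 of the 36 members tested differed from WT layer 6: 8 rose and 8 fell. The rises were led by the NMDA receptor genes Grin2c and Grin3a and the metabotropic receptor genes Grm4 and Grm7, by 1.53 to 2.26-fold. The falls were smaller, at most 1.34-fold, and led by the AMPA receptor cornichon gene Cnih3, the kainate receptor auxiliary gene Neto2 and the kainate subunit gene Grik3. Calls were made at an edgeR quasi-likelihood adjusted p under 0.05 (Benjamini-Hochberg over all genes tested). The members called were 44.4% of those tested, beside 14.2% of all 14588 genes (7.31% higher and 6.86% lower). The groups did not overlap for 19 members, or 52.8%, beside 19.9% of all genes. The members' median log2 fold change was -0.038, beside 0.00034 over all genes, and the median size of the change 0.16, beside 0.087. With the paired libraries summed, 2 against 2, 7 members and 479 of all genes were called, in place of 16 and 2068. In these pools of sorted cells, fewer cells of a type and less RNA per cell cannot be told apart.

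**Figure D1:**
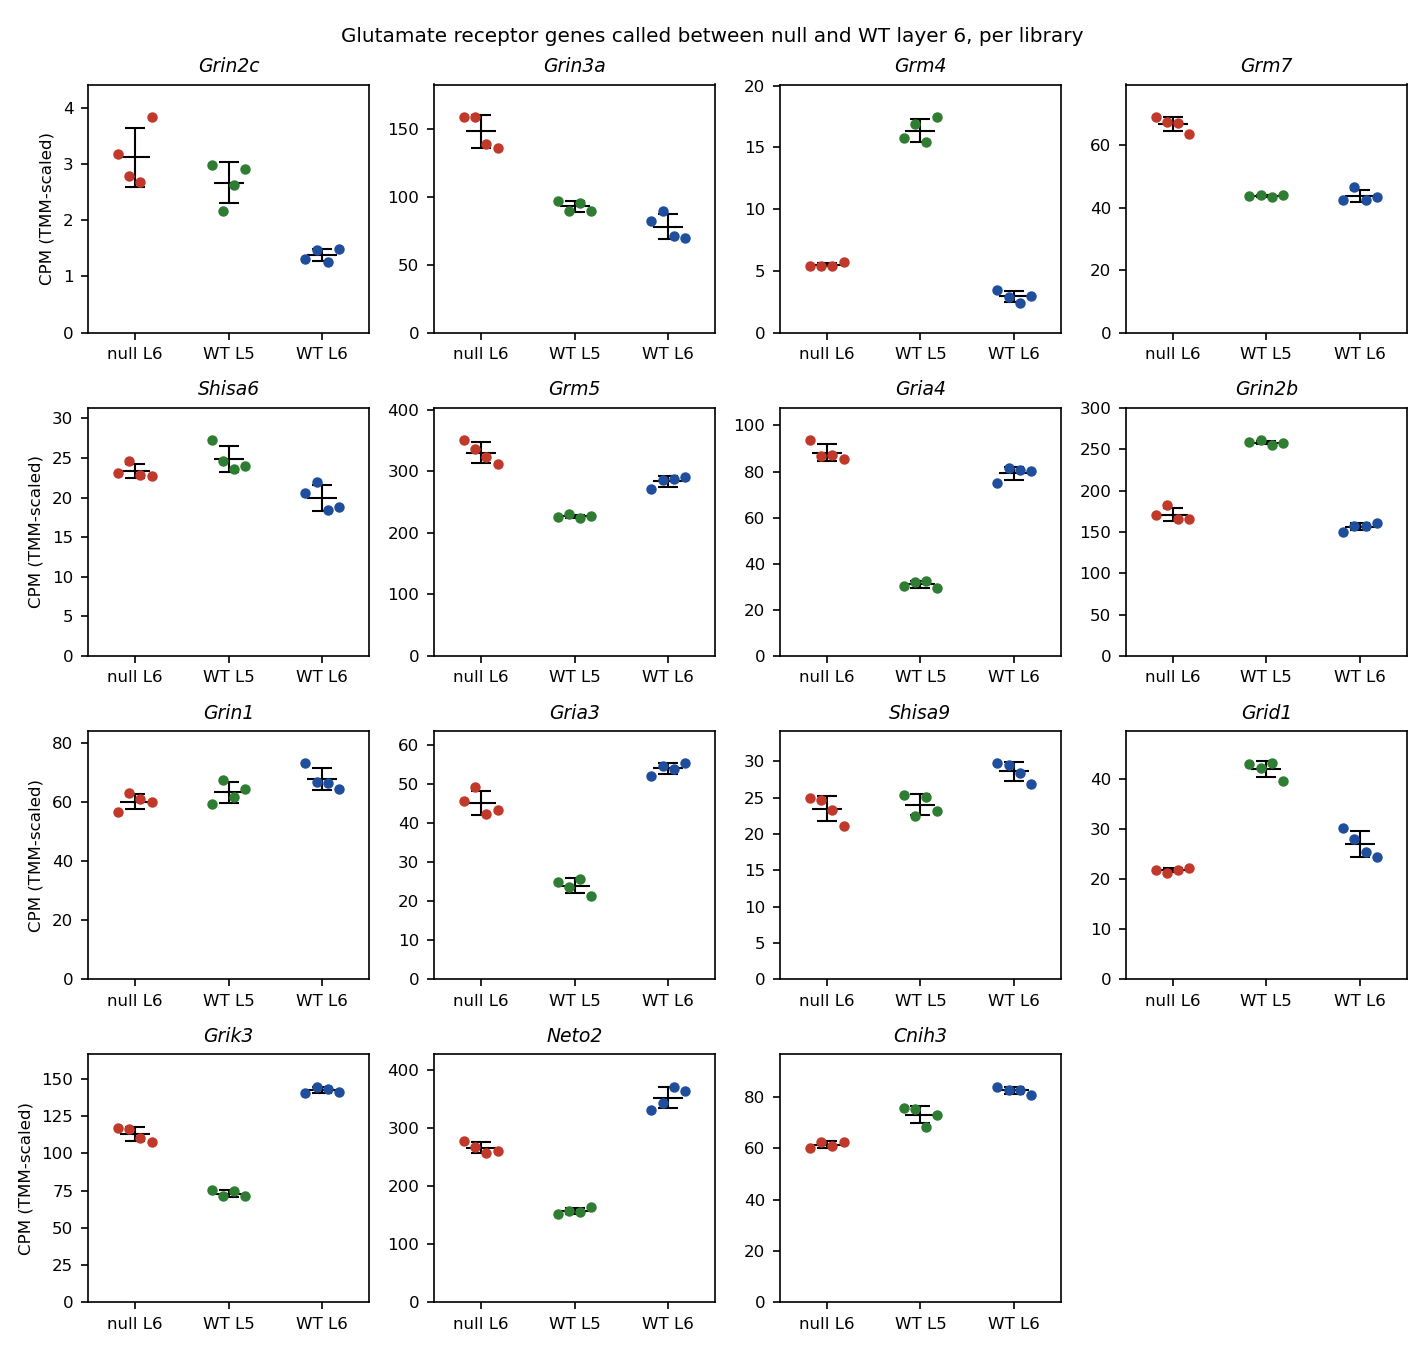
CPM (TMM-scaled, linear axis from 0) of 15 of the 16 members called between null and WT layer 6, in the order of their log2 fold change, with each point 1 library and bars the mean ± SD of 4. The red null points lie wholly above or wholly below the blue WT layer 6 points in every panel. Green WT layer 5 points are shown for comparison and took no part in choosing the panels.

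Of the 7 NMDA receptor genes 3 rose, 1 fell, 2 were not called and 1 was not tested. Grin3a encodes GluN3A, which lowers the calcium permeability of NMDA receptors and is most abundant in the early postnatal brain. It had 159, 159, 139 and 136 CPM in null and 82.5, 89.4, 71.0 and 69.7 CPM in WT layer 6 libraries. Replicates 1 and 2 were the higher ones in both groups, and the groups stood far apart, with a log2 fold change of 0.93 ± 0.078 (± SE here and for all fold changes; edgeR adjusted p = 4.29e-06). Grin2c, which encodes GluN2C and in the forebrain is also found in astrocytes, had the largest fold change of all members at a low level, with 3.17, 2.79, 2.68 and 3.84 CPM in null and 1.31, 1.46, 1.27 and 1.48 CPM in WT layer 6. Every null library was above every WT library, at 1.18 ± 0.16 on the log2 scale (edgeR adjusted p = 0.000267).

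Grin1, the subunit that every NMDA receptor contains, went the other way, with 56.6, 63.0, 60.9 and 59.9 CPM in null and 73.1, 66.7, 66.5 and 64.4 CPM in WT layer 6. The highest null and lowest WT library were close, and the log2 fold change was -0.17 ± 0.047 (edgeR adjusted p = 0.0278). Grin2b, the main GluN2 subunit of the newborn cortex, had 171, 182, 165 and 165 CPM in null and 150.5, 157, 158 and 161 CPM in WT layer 6, a log2 fold change of 0.13 ± 0.037 (edgeR adjusted p = 0.0357). Each of these small differences was lost in 9 of 18 alternatives, with adjusted p of 0.00952 to 0.200 for Grin1 and 0.0115 to 0.354 for Grin2b. Leaving out null replicate 1 or WT layer 6 replicate 1 or 2 ended both calls, null replicate 4 that of Grin1, and null replicate 2 or WT layer 6 replicate 3 that of Grin2b. Grin2a, the subunit that joins later in development, was not called, at 0.35 ± 0.11 (edgeR adjusted p = 0.0545), although its groups did not overlap, with 5.72, 7.34, 6.28 and 6.05 CPM in null and 5.26, 5.55, 4.47 and 4.72 CPM in WT layer 6. DESeq2, the fit without null replicate 1 and 2 others called it, and over 18 alternatives its adjusted p ran from 0.00848 to 0.294. Grin2d was not called either, at -0.25 ± 0.13, and Grin3b was too low to test, with 2 counts in all null and 4 in all WT layer 6 libraries.

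The make-up of the NMDA receptor transcripts differed between the groups. Grin3a took 37.6% ± 1.62 of the counts of the 6 tested Grin genes in null and 24.8% ± 2.25 in WT layer 6 (SD, n = 4 each), while Grin1 took 15.3% ± 0.879 in null and 21.5% ± 1.01 in WT. Grin2b took 43.4% ± 0.528 in null and 49.8% ± 2.52 in WT, a smaller share although its CPM was called higher. Ranges did not overlap for any of the 3 genes. Shares sum to the whole, so a larger share of Grin3a lowers those of the others. Gene length was not divided out, so such shares compare groups and not genes.

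AMPA receptor subunit genes differed little. Gria1 and Gria2, whose products form the commonest cortical AMPA receptor, were not called, at -0.020 ± 0.049 and -0.057 ± 0.044, and Gria2 made up 49.7% ± 0.794 of the Gria counts in null and 50.5% ± 2.33 in WT layer 6. Gria3 had 45.8, 49.2, 42.5 and 43.4 CPM in null and 52.2, 54.7, 54.0 and 55.4 CPM in WT layer 6. It fell in every null library, at -0.26 ± 0.048 (edgeR adjusted p = 0.00273), and lost its call with the paired libraries summed (adjusted p = 0.114; range over 18 alternatives 3.16e-05 to 0.114). Gria4, a subunit of fast receptors, rose, with 93.6, 86.6, 87.2 and 85.3 CPM in null and 75.1, 81.4, 80.7 and 80.2 CPM in WT layer 6. The gap was narrow, at 0.15 ± 0.040 (edgeR adjusted p = 0.0207), and 5 of 18 alternatives lost the call, among them the fit without WT layer 6 replicate 1 (adjusted p of 0.00573 to 0.208 over all 18).

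Of the AMPA receptor auxiliary genes, Cnih3 had the lowest adjusted p. Cornichons slow the closing of AMPA receptors and help them out of the endoplasmic reticulum. Cnih3 had 60.1, 62.6, 60.9 and 62.4 CPM in null and 84.1, 82.9, 82.8 and 80.8 CPM in WT layer 6, a log2 fold change of -0.43 ± 0.033 (edgeR adjusted p = 1.82e-06). Its relative Cnih2 was not called, at -0.026 ± 0.039. None of the 6 TARP genes was called, with log2 fold changes between -0.25 for Cacng5 and 0.022 for Cacng8, with 2 of the 6 at an unadjusted p under 0.05. DESeq2 called 0 of the 6, and Cacng5 was called without WT layer 6 replicate 2 or without replicates 1 and 2. The stargazin gene Cacng2 was at -0.12 ± 0.056, although its groups did not overlap (14.8 to 16.4 CPM in null, 16.5 to 17.7 CPM in WT layer 6). The SHISA genes split. Shisa9, which encodes the AMPA receptor protein CKAMP44, fell to 24.9, 24.7, 23.2 and 21.2 CPM in null, against 29.7, 29.5, 28.4 and 26.8 CPM in WT layer 6, at -0.28 ± 0.060. Shisa6, whose product keeps AMPA receptors from desensitising, rose to 23.1, 24.6, 22.9 and 22.8 CPM in null, against 20.5, 22.0, 18.4 and 18.8 CPM in WT layer 6, at 0.23 ± 0.062. The edgeR adjusted p was 0.00630 and 0.0250, and the call was lost in 2 and 7 of 18 alternatives. Shisa9 lost it without WT layer 6 replicates 1 and 2 and with pairs summed, and Shisa6 without null replicate 2 or WT layer 6 replicate 3 or 4, among others.

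Kainate receptor genes fell where they were called. Neto2 encodes an auxiliary subunit that slows kainate receptors, and Grik3 the GluK3 subunit. Neto2 had 279, 268, 257 and 262 CPM in null and 332, 344, 372 and 364 CPM in WT layer 6. Grik3 had 117, 117, 110.3 and 107 CPM in null and 140.1, 145, 143 and 141 CPM in WT layer 6. Both were separated by more than the spread of either group, at -0.41 ± 0.041 and -0.33 ± 0.034 (edgeR adjusted p = 2.07e-05 and 2.35e-05). The other 4 kainate subunits and Neto1 were not called. Grik2 was at 0.16 ± 0.058, and was called without null replicate 3 or 4. Neto1 was at 0.12 ± 0.070, and Grik1, Grik4 and Grik5 were between -0.052 and 0.038. In null libraries Neto1 was split by pair, with 54.9, 54.2, 44.8 and 44.5 CPM, against 43.9, 44.0, 48.0 and 46.2 CPM in WT layer 6. Of the delta receptors, which bind cerebellins in the synaptic cleft, Grid1 fell to 21.8, 21.3, 21.9 and 22.3 CPM in null, against 30.2, 28.0, 25.5 and 24.5 CPM in WT layer 6. Its WT libraries spread more than its null ones, and the difference was -0.31 ± 0.065 (edgeR adjusted p = 0.00570). Without WT layer 6 replicates 1 and 2, which also differ in Xist, the Grid1 call was lost, as it was with pairs summed (largest adjusted p of 18 alternatives 0.151, smallest 0.000252).

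Among metabotropic receptor genes Grm7, Grm4 and Grm5 rose. Grm7 and Grm4 belong to group III, inhibitory receptors found mostly on axon terminals. Grm7 had 69.1, 67.5, 67.2 and 63.6 CPM in null and 42.5, 46.6, 42.5 and 43.4 CPM in WT layer 6. Grm4 had 5.42, 5.43, 5.43 and 5.69 CPM in null and 3.49, 2.90, 2.38 and 3.0 CPM in WT layer 6. All null libraries were above all WT ones, at 0.61 ± 0.042 for Grm7 and 0.90 ± 0.12 for Grm4 (edgeR adjusted p = 7.04e-07 and 0.000255). Grm8 of the same group was not called, at 0.19 ± 0.090, although its libraries did not overlap (6.46 to 7.60 CPM in null, 5.79 to 6.43 CPM in WT layer 6). Grm6 had 1 count in null and 1 in WT layer 6 libraries and was not tested. Grm5, a group I receptor that couples to phospholipase C, had 350.4, 335, 323 and 311 CPM in null and 271, 285, 288 and 291 CPM in WT layer 6, at 0.22 ± 0.040 (edgeR adjusted p = 0.00230). Its null libraries were all above its WT ones, and the call was lost in 1 of 18 alternatives, the summed pairs. Grm2 and Grm3 of group II, which lower glutamate release, were not called, at -0.15 ± 0.11 and -0.12 ± 0.052. Grm3 was called without WT layer 6 replicate 1, and both were called without replicates 1 and 2, where Grm2 was at -0.35. Without WT layer 6 replicates 3 and 4 Grm2 was at 0.093 and not called.

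Calls for 7 of the 16 members held in all 18 alternatives: Grm7, Cnih3, Grin3a, Neto2, Grik3, Grm4 and Grin2c. Over those alternatives their largest adjusted p was 0.0317, for Grm4. The other 9 each lost the call at least with the paired libraries summed, and no called member changed sign. Markers of other cells moved too: of 10 astrocyte markers 5 were higher and 2 lower in null, with a summed level of 1038 to 1110 CPM in null and 863 to 993 CPM in WT layer 6 libraries. The 10 interneuron markers had 1 higher and 4 lower (343 to 351 against 362 to 383 CPM), and the 6 dividing progenitor markers 3 higher and 0 lower (393 to 410.4 against 360 to 371 CPM). The 10 oligodendrocyte lineage markers, of which 9 were tested, had 2 higher and 4 lower (258 to 271 against 260 to 273 CPM), with Mag and Mog under 1 CPM and Mog at 0 in 3 of 4 libraries of each group. The 8 microglia markers had 0 called at an adjusted p under 0.05. Of 6 vascular markers 0 were higher and 1 lower (245 to 253 against 261 to 271 CPM). Neuronal markers, 6 in all, had 1 higher and 1 lower (5199 to 5458 against 5374 to 5628 CPM). All 6 layer 6 markers, which include the mutated Tbr1, were lower in null and 4 of 6 layer 5 markers higher (662 to 731 against 499 to 553 CPM). Of the astrocyte markers Aldh1l1, Aldoc, Sox9, Slc1a2 and Slc1a3 were higher in null and Gja1 and Gjb6 lower. Gfap, Fgfr3 and Aqp4 were not called, with Aqp4 at 10.1 to 12.9 CPM in null and 10.1 to 13.1 CPM in WT layer 6. The part of all these cells in the receptor results was not tested.

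**Figure D2:**
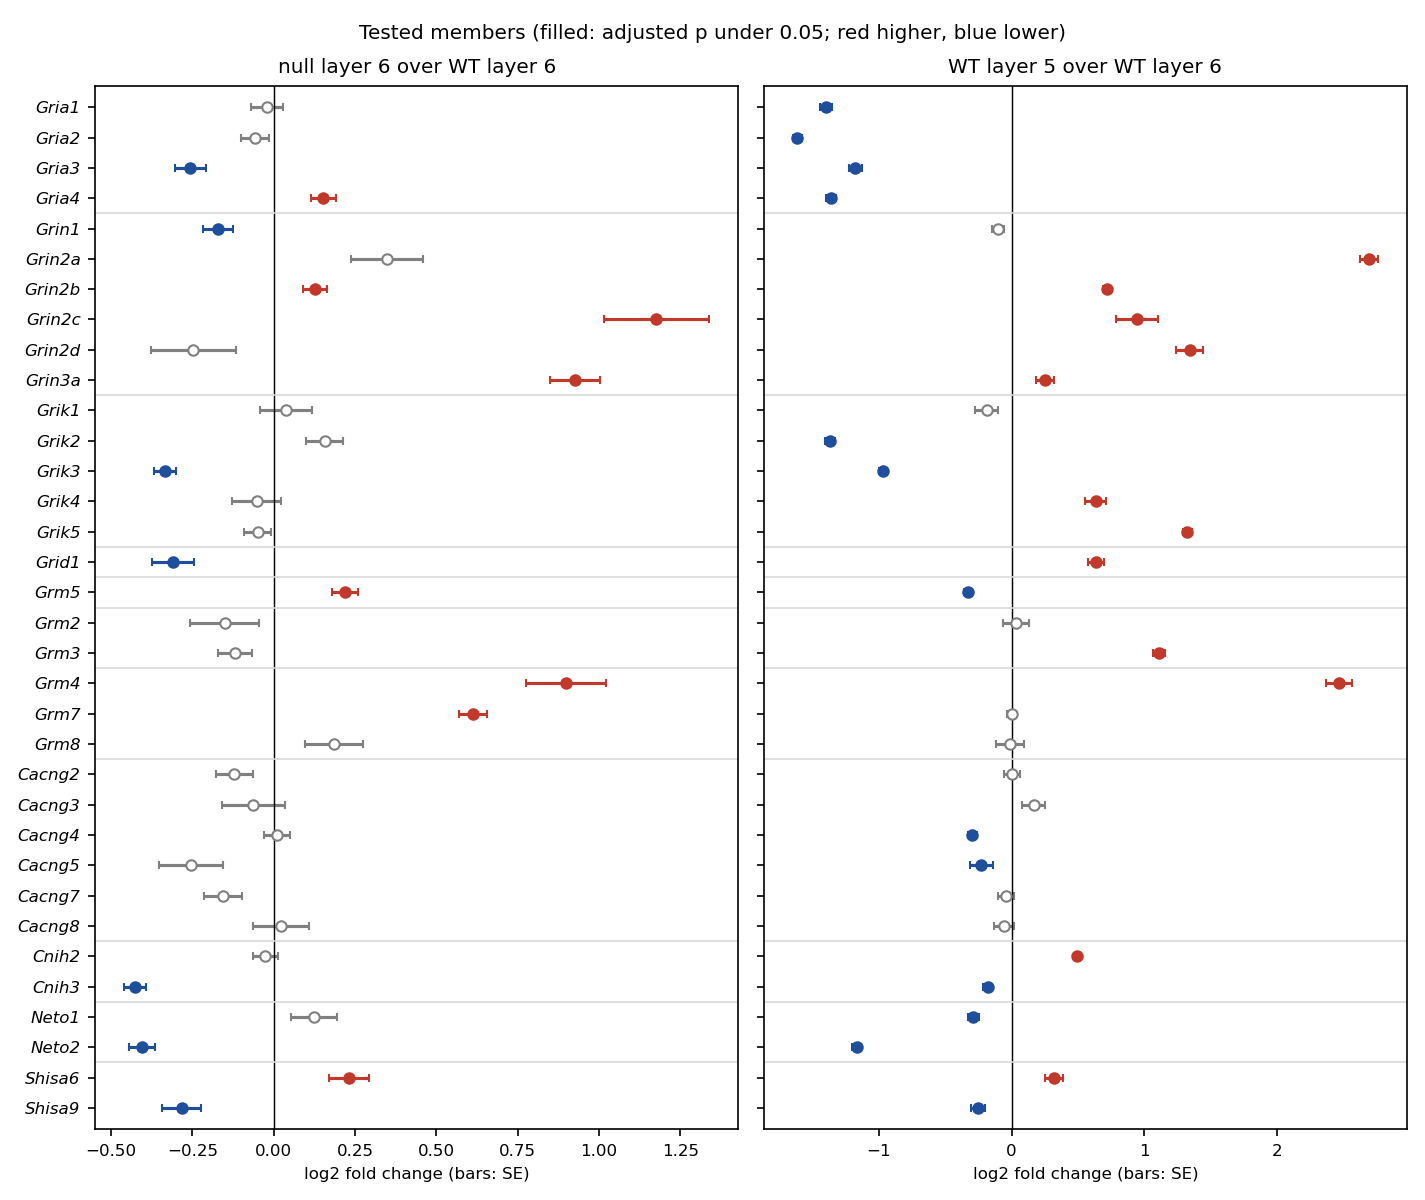
Log2 fold change of 34 of the 36 tested members, grouped by receptor family, for null over WT layer 6 (left) and WT layer 5 over WT layer 6 (right), with SE bars and filled points for an adjusted p under 0.05. The axes differ in scale: on the left changes run from -0.43 to 1.18, on the right from -1.61 to 2.69. Both panels use the same WT layer 6 libraries.

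Promoter sequence is shown for a pair of members that rose and a pair that fell with calls held in all alternatives, to show the letters upstream of their start sites. The RefSeq table on build GRCm38.p6 held windows for 23 of the 38 members. Each line gives the 250 bases before a start, 5′ to 3′ on the strand of the gene, with capitals for GTGTGA on either strand (TCACAC is its complement read backwards), the core of the T-box octamer AGGTGTGA.
Grm7, chr6:110645262-110645511 (plus strand, 1 of 2 starts): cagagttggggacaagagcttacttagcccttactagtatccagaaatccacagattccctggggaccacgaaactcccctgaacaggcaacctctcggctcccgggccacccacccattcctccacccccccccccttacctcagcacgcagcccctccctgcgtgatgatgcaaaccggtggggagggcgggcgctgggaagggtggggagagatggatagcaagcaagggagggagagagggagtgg
Grin2c, chr11:115267244-115267493 (minus strand): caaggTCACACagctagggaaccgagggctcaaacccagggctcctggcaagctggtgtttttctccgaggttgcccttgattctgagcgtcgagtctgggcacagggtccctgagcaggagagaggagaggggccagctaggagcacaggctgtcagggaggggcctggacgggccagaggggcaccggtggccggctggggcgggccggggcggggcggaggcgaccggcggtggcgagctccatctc
Cnih3, chr1:181352378-181352627 (plus strand): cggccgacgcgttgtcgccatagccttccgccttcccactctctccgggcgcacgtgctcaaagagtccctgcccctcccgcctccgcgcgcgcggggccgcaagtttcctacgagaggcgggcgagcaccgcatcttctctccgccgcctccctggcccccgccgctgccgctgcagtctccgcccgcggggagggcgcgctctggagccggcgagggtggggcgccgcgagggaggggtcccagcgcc
Neto2, chr8:85691010-85691259 (minus strand, 1 of 2 starts): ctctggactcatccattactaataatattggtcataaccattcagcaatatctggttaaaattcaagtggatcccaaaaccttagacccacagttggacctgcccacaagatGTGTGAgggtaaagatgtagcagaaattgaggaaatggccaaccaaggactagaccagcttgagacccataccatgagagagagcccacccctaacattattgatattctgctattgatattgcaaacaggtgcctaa
The Grm7 and Cnih3 windows hold no core, nor does that of the other Grm7 start. Neither does that of Grik3, which also fell with its call held and is not shown. Grin2c has 1 that begins 245 bases before the start and Neto2 1 that begins 138 bases before it, and the window of the other Neto2 start has none. Of all 32851 windows in the table, 12.3% hold the core and 1.12% the octamer. Among 28 windows of members, 3 hold the core, of Cacng5, Grin2c and Neto2, and 0 the octamer. A match describes letters and not binding.

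Other genes of glutamatergic transmission were counted from a list of 69, of which 68 were in the table and 67 were tested between null and WT layer 6: 12 rose, 10 fell and 45 were not called, beside 7.31% higher and 6.86% lower over all genes. Of the transporters that load glutamate into vesicles, Slc17a7 (VGLUT1) fell, at -0.44 ± 0.052, and the scarce Slc17a8 (VGLUT3) rose, with 0.610, 1.3, 1.10 and 1.16 CPM in null and 0.541, 0.537, 0.218 and 0.488 CPM in WT layer 6. Of the 5 glutamate uptake genes 3 rose and 2 were not called. Slc1a1 of neurons was at 0.28 ± 0.038 and the mainly astrocytic Slc1a2 and Slc1a3 at 0.39 ± 0.062 and 0.34 ± 0.051. Slc1a2 and Slc1a3 are themselves among the 10 astrocyte markers above, so the rise of that sum is not separate from theirs. Slc1a2 averaged 263 CPM in null and 201 CPM in WT layer 6, and Slc1a3 369 and 292 CPM. The astrocyte sums that hold both averaged 1078 and 928 CPM. Gsg1l, whose product reduces AMPA receptor currents, had 29.3, 33.2, 24.6 and 22.9 CPM in null and 16.1, 17.3, 14.7 and 15.6 CPM in WT layer 6. Its rise, 0.79 ± 0.10, stood beside falls of the AMPA receptor assembly gene Frrs1l at -0.15 ± 0.040 and of Shisa7 at -0.20 ± 0.061. Itpr1 and Plcb4, which act downstream of group I metabotropic receptors, rose at 0.43 ± 0.038 and 0.26 ± 0.059. The cerebellin gene Cbln1, a ligand of delta receptors, fell at -0.31 ± 0.058 and the kinase gene Camk2b at -0.23 ± 0.028. Adarb1, the enzyme that edits Gria2 RNA, fell at -0.19 ± 0.041. Genes of membrane scaffolds and receptor anchors went both ways: of 19, 4 rose, 3 fell and 12 were not called. Among them were Grip2 at -0.26 ± 0.048, Homer2 at 0.21 ± 0.045 and Dlgap3 at 0.20 ± 0.045.

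WT layer 5 libraries had much less AMPA receptor RNA and a different set of NMDA receptor subunits than WT layer 6 libraries. All 4 Gria genes were lower in layer 5, by 2.26 to 3.06-fold. Of the 6 tested Grin genes 5 were higher, Grin2a most, at 6.46-fold. Kainate receptor genes divided, with Grik2 and Grik3 lower and Grik4 and Grik5 higher. In all, 13 members rose and 14 fell of 36 tested, or 75%, beside 85.5% of all 14927 genes (42.2% higher and 43.4% lower), so the share called is not a result about these genes. The groups did not overlap for 26 members, or 72.2%, beside 81.3% of all genes. All layer 6 libraries were sequenced in batch A, layer 5 replicates 1 and 2 in B and 3 and 4 in C, so layer and batch cannot be told apart. Batches B and C each hold 1 library of both closely alike layer 5 pairs. Fits with either batch alone therefore use closely alike libraries and cannot separate layer from batch. Glial and vascular marker sums were far higher in layer 5. The 10 astrocyte markers summed to 5180 to 5197 CPM there and 863 to 993 CPM in WT layer 6 (9 higher, 1 lower). The 10 oligodendrocyte lineage markers summed to 1117 to 1128 CPM against 260 to 273 CPM (10 higher), the 8 microglia markers to 258 to 267 against 77.1 to 89.3 CPM (8 higher) and the 6 vascular markers to 591 to 609 against 261 to 271 CPM (6 higher). The 6 neuronal markers summed to 4467 to 4538 against 5374 to 5628 CPM, but 3 were higher, 2 lower and 1 not called. Tubb3 averaged 1768 against 3309 CPM and Map2 2125 against 1639 CPM. The 10 interneuron markers summed to 210.0 to 218 against 362 to 383 CPM (1 higher, 8 lower). The 6 dividing progenitor markers went the other way from the glial lists, with 254 to 268 against 360 to 371 CPM. Of these, 1 was higher, 4 were lower and 1 was not called, with Eomes at a mean of 4.83 against 49.9 CPM. The part of all these cells in the differences below was not tested.

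**Figure D3:**
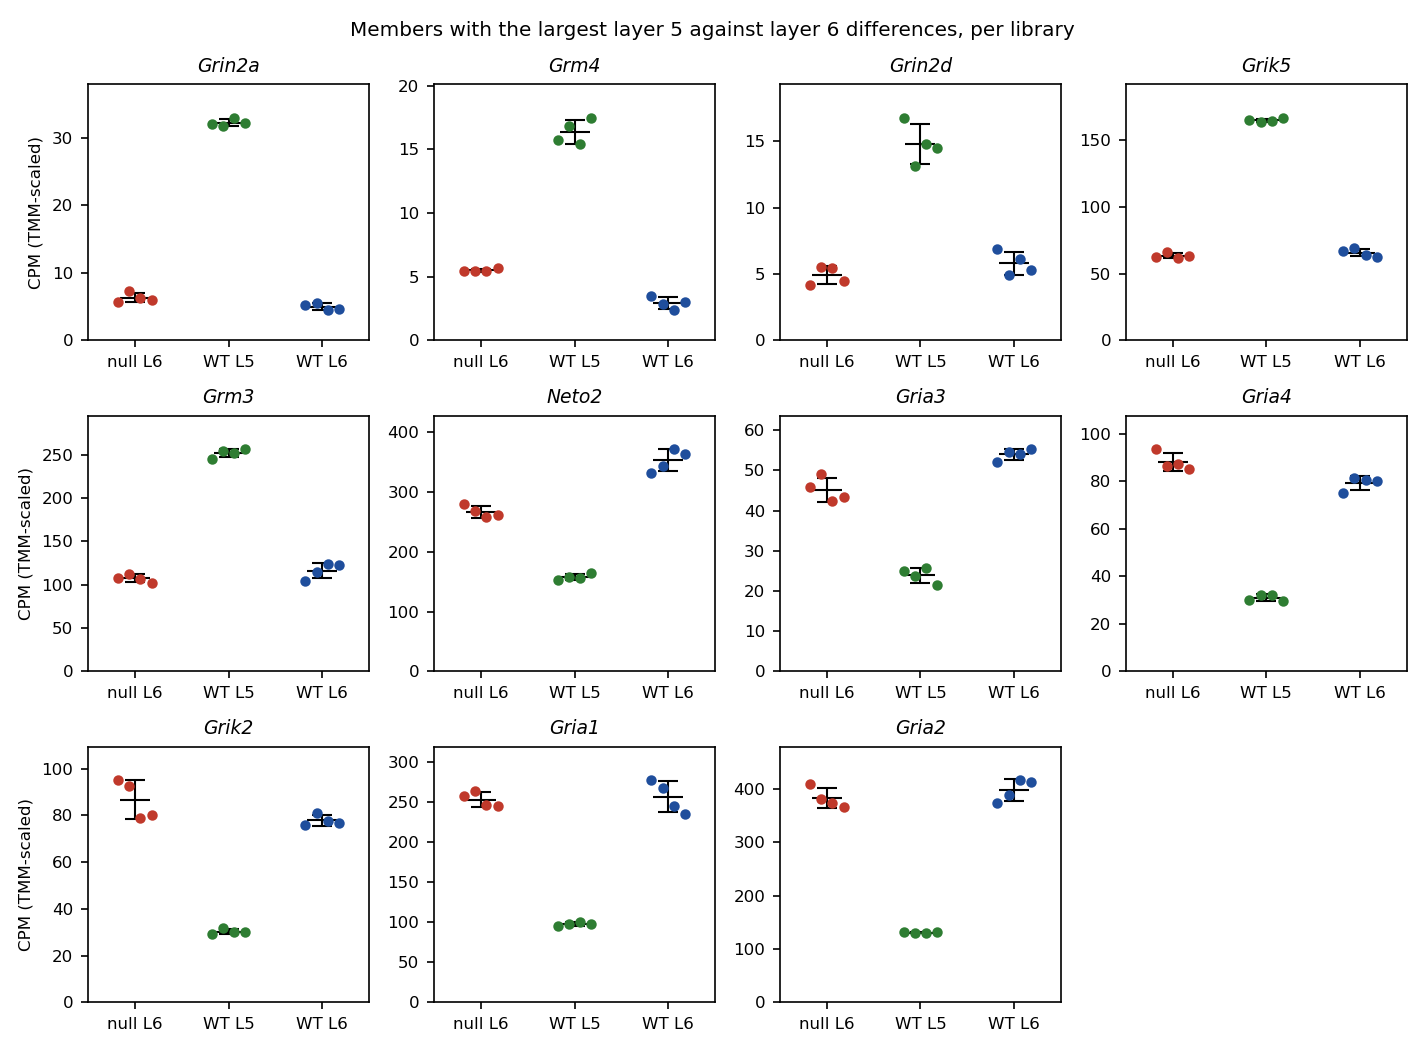
CPM (TMM-scaled, linear axis from 0) of 11 members among the 12 with the largest called differences between WT layer 5 and WT layer 6, with each point 1 library and bars the mean ± SD of 4. Green layer 5 points and blue WT layer 6 points do not overlap in any panel, and the red null layer 6 points lie nearer to WT layer 6 than to layer 5.

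Gria2, the subunit that blocks calcium entry, had 132, 130.4, 130.1 and 131 CPM in WT layer 5 and 374, 389.6, 417 and 413 CPM in WT layer 6. Gria1 had 94.9, 97.9, 100.5 and 98.2 CPM in WT layer 5 and 278, 268, 246 and 236 CPM in WT layer 6. The layer 5 libraries of both genes lay within a few CPM of each other, far below layer 6, at -1.61 ± 0.033 and -1.40 ± 0.045. Gria3 had 25, 23.7, 25.7 and 21.4 CPM in WT layer 5 and 52.2, 54.7, 54.0 and 55.4 CPM in WT layer 6. Gria4 had 30.2, 32.1, 32.4 and 29.5 CPM in WT layer 5 and 75.1, 81.4, 80.7 and 80.2 CPM in WT layer 6. Their log2 fold changes were -1.18 ± 0.050 and -1.36 ± 0.040, and the largest edgeR adjusted p of the 4 genes was 1.20e-11. The 4 genes together summed to 284 ± 3.54 CPM in WT layer 5 and 789 ± 8.61 CPM in WT layer 6 (mean ± SD, n = 4 each). Within that sum Gria2 took 46.1% ± 0.822 in layer 5 and 50.5% ± 2.33 in layer 6, and Gria3 8.44% ± 0.596 and 6.85% ± 0.158, with ranges that did not overlap for either gene. Genes of AMPA receptor partners moved both ways. Cnih2 was higher in layer 5, at 0.49 ± 0.024 (326 ± 4.29 against 231 ± 6.58 CPM), Cnih3 lower at -0.18 ± 0.036, Cacng4 lower at -0.29 ± 0.037 and Cacng5 lower at -0.23 ± 0.088. The Cacng5 call was lost in 8 of 20 alternatives, among them the fits without layer 5 replicate 2 or 4 and without WT layer 6 replicate 3 or 4, and with either layer 5 batch alone. The other 4 TARP genes were not called, between -0.057 and 0.17. Shisa6 was higher, at 0.32 ± 0.066, and Shisa9 lower, at -0.25 ± 0.054.

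Grin2a had 32, 31.8, 33.0 and 32.2 CPM in WT layer 5 and 5.26, 5.55, 4.47 and 4.72 CPM in WT layer 6. That difference, 2.69 ± 0.066 on the log2 scale (edgeR adjusted p = 3.12e-14), was the largest of all members, and was 2.67 with layer 5 batch B alone and 2.70 with batch C alone. Grin2d, abundant before birth and in interneurons, had 16.8, 13.2, 14.8 and 14.5 CPM in WT layer 5 and 6.89, 4.95, 6.11 and 5.28 CPM in WT layer 6, at 1.34 ± 0.10. Of the 10 interneuron markers 8 were lower, 1 higher and 1 not called in layer 5, and their part in the Grin2d result was not tested. Grin2b was at 0.72 ± 0.025 (258 ± 2.33 against 156 ± 4.31 CPM), Grin2c at 0.95 ± 0.16 and Grin3a at 0.25 ± 0.066, a call lost without layer 5 replicates 1 and 3. Grin1 was not called, at -0.10 ± 0.047 (edgeR adjusted p = 0.0502), and 6 of 20 alternatives called it, among them the fits without WT layer 6 replicate 2 or 4 or layer 5 replicate 2 (adjusted p of 0.00262 to 0.422). Grin3b had 20 counts in layer 5 libraries, 16 of them in replicate 1.

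The count ratio of Grin2b to Grin2a, a ratio that falls as cortical synapses mature and that needs no scaling between libraries, set layer 5 apart. Libraries of null layer 6 had 29.8, 24.8, 26.3 and 27.4 Grin2b counts per Grin2a count, those of WT layer 5 had 8.07, 8.21, 7.75 and 7.99, and those of WT layer 6 had 28.6, 28.3, 35.2 and 34.1. The log2 ratio of Grin2a to Grin2b was higher in WT layer 5 than in WT layer 6 by 1.97 (two-sided exact permutation test, p = 0.0286, the smallest that 4 against 4 libraries allow; 0.0429 adjusted over 3 comparisons). Null and WT layer 6 overlapped, with a difference of 0.22 (exact permutation p = 0.114, both raw and adjusted), and null layer 6 against WT layer 5 differed by -1.76 (exact permutation p = 0.0286, adjusted 0.0429). The test treats the 4 libraries of a group as independent, although they were most alike in pairs, so these p-values may be too small. With paired libraries summed the differences were 1.97 between WT layers, 0.22 for null against WT layer 6 and -1.75 for null against WT layer 5, without a test.

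**Figure D4:**
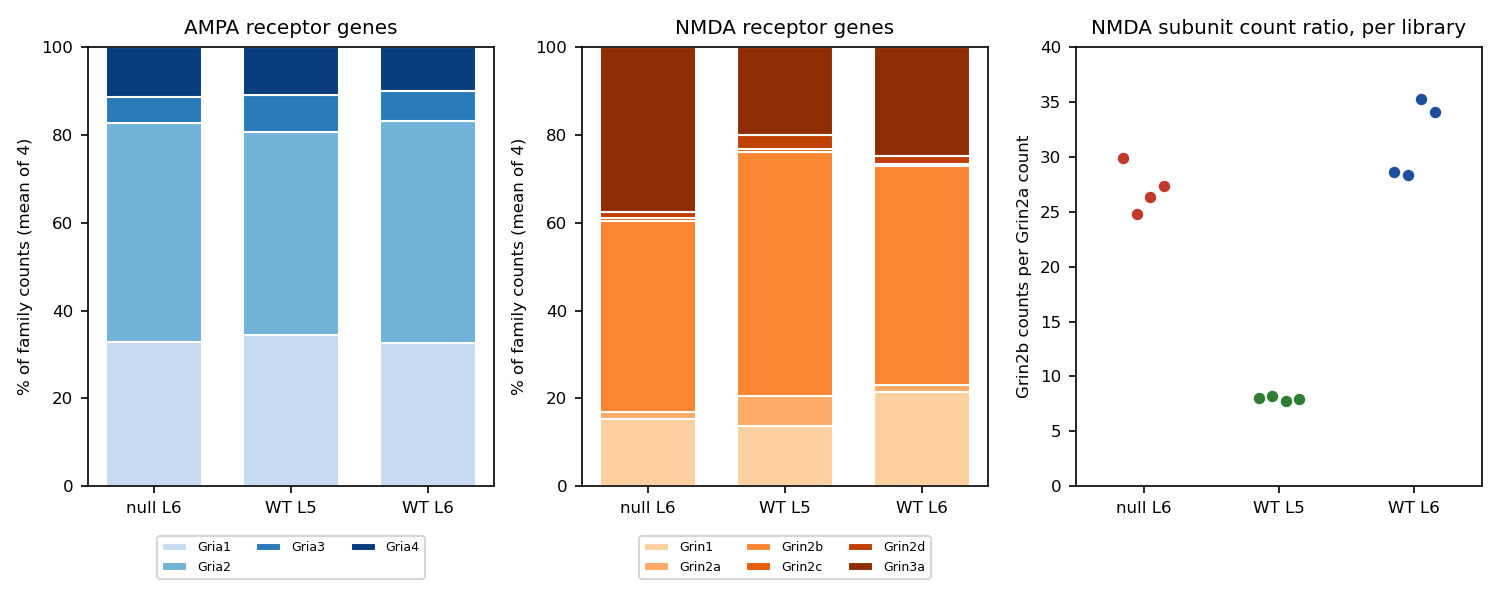
Left and middle, mean percent of the summed counts of the 4 Gria genes and of the 6 tested Grin genes taken by each gene in null layer 6, WT layer 5 and WT layer 6 (4 libraries each, gene length not divided out). Right, Grin2b counts per Grin2a count in each library: null layer 6 lies between 24.8 and 29.8, WT layer 5 near 8, and WT layer 6 between 28.3 and 35.2.

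Grik2, which encodes the GluK2 subunit, had 29.3, 31.8, 30.3 and 30.0 CPM in WT layer 5 and 75.9, 81.0, 77.7 and 76.8 CPM in WT layer 6. Grik5, whose high-affinity GluK5 subunit needs a partner such as GluK2 to form a channel, had 165, 164, 164 and 167 CPM in WT layer 5 and 67.2, 69.0, 64.1 and 62.8 CPM in WT layer 6. The genes went opposite ways, at -1.36 ± 0.036 and 1.32 ± 0.033 (edgeR adjusted p = 7.52e-14 and 3.05e-14). Grik3 was lower, at -0.97 ± 0.030, Grik4 higher, at 0.63 ± 0.081, and Grik1 not called, at -0.19 ± 0.085, though 8 of 20 alternatives called it, among them the fits without WT layer 6 replicate 3 or 4 or layer 5 replicate 3. The 5 genes summed to 302 ± 3.83 CPM in WT layer 5 and 316 ± 7.55 CPM in WT layer 6 (mean ± SD, n = 4 each). Neto2 had 153, 157, 157 and 165 CPM in WT layer 5 and 332, 344, 372 and 364 CPM in WT layer 6, at -1.17 ± 0.036. Neto1 was lower as well, at -0.29 ± 0.040.

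The delta receptor gene Grid1 was higher in layer 5, at 0.64 ± 0.060. Grm4 had 15.7, 16.9, 15.4 and 17.5 CPM in WT layer 5 and 3.49, 2.90, 2.38 and 3.0 CPM in WT layer 6, a log2 fold change of 2.47 ± 0.10. Grm3, which astrocytes express as well as neurons, had 245, 254, 252 and 257 CPM in WT layer 5 and 104, 114, 124 and 123 CPM in WT layer 6. It was at 1.11 ± 0.045, beside the 5186 against 928 CPM (means) of summed astrocyte markers given above. Grm5 was lower, at -0.33 ± 0.026. Grm7 and Grm8 were not called, at 0.00067 ± 0.036 and -0.0082 ± 0.11, and Grm6 had 0 counts in layer 5. Grm2 was not called, at 0.035 ± 0.10, but its WT layer 6 pairs disagreed, with 25, 26.1, 23.8 and 26.6 CPM in WT layer 5 and 21.2, 20.4, 27.1 and 29.6 CPM in WT layer 6. It was called lower without WT layer 6 replicates 1 and 2 (-0.19) and higher without replicates 3 and 4 (0.27). For the 11 members plotted above the edgeR adjusted p was 1.46e-08 or less. All 11 kept their calls with layer 5 batch B or C alone, though these batches hold closely alike libraries. Of 68 other genes of glutamatergic transmission 43 rose, 18 fell and 7 were not called, beside 85.5% of all genes called (42.2% higher and 43.4% lower), so the share called is again near that of all genes. The 9 genes of postsynaptic kinases and phosphatases and the 5 of glutamate and D-serine metabolism were each called higher, with Camk2b at 0.58 ± 0.019 and Glul, the astrocytic glutamine synthetase gene, at 2.83 ± 0.021. Of the secreted receptor organisers 2 rose and 6 fell of 10, with Cbln1 at -1.91 ± 0.066 and Nptxr at -1.91 ± 0.091.

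Null layer 6 libraries were also set against WT layer 5 libraries, a comparison that shares a group with each of the others. Genotype, layer and batch all differ between these groups and cannot be told apart. All 10 astrocyte, 10 oligodendrocyte lineage, 8 microglia and 6 vascular markers were lower in null layer 6. Of 10 interneuron markers 7 were higher and 2 lower, and of 6 dividing progenitor markers 5 were higher and 1 lower. The part of these cells in the differences was not tested. Here 14 members rose and 13 fell of 36 tested, or 75%, beside 84.3% of all 15013 genes (42.4% higher and 41.8% lower). The groups did not overlap for 25 members, or 69.4%, beside 79.9% of all genes. The 4 Gria genes were higher in null layer 6, between 0.91 ± 0.063 for Gria3 and 1.55 ± 0.034 for Gria2. Beside the layer 5 values given above, null libraries had 409, 381, 375 and 367 CPM of Gria2 and 258, 264, 247 and 245 CPM of Gria1, the Gria1 difference being 1.37 ± 0.033, and Gria4 was at 1.51 ± 0.044. None of the 4 genes overlapped between these groups. Grin2a was lower, at -2.35 ± 0.068 (6.35 ± 0.704 against 32.3 ± 0.511 CPM), and Grm4 was at -1.57 ± 0.071. Grin2d had 4.20, 5.52, 5.45 and 4.46 CPM in null libraries, at -1.60 ± 0.10, all below every layer 5 library. Grik2 had 95.2, 92.5, 79.0 and 80.1 CPM in null libraries, with replicates 1 and 2 higher than 3 and 4, at 1.51 ± 0.061. Grik5 had 62.5, 66.3, 61.7 and 63.6 CPM in null libraries, at -1.38 ± 0.030. Grm3 had 108, 113, 106 and 101 CPM in null libraries, at -1.23 ± 0.034, beside summed astrocyte markers of 1038 to 1110 CPM in null layer 6 and 5180 to 5197 CPM in WT layer 5. Grid1 had 21.8, 21.3, 21.9 and 22.3 CPM in null layer 6 and 43.1, 42.3, 43.2 and 39.7 CPM in WT layer 5, without overlap, at -0.95 ± 0.046. The largest edgeR adjusted p of these 11 genes was 2.12e-09. Of the 27 calls 24 held in all 20 alternatives. Cacng3 lost its call in 13 of them, among them the fits without null replicate 1, 3 or 4 or layer 5 replicate 2 or 3, Grm2 in 5 and Grik1 in 1. Of the 68 other genes of glutamatergic transmission 16 rose, 41 fell and 11 were not called, beside 84.3% of all genes called.

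Side by side, the 7 members whose calls between null and WT layer 6 held in every alternative took different places among the groups. Grin3a averaged 148 ± 12.4 CPM in null, 93.1 ± 3.84 in WT layer 5 and 78.2 ± 9.47 in WT layer 6, so null was highest. Grm7 averaged 66.8 ± 2.32 CPM in null, 43.9 ± 0.313 in WT layer 5 and 43.7 ± 1.95 in WT layer 6, with WT layers that overlapped. Null was between the WT layers for 3 genes. Grm4 averaged 5.49 ± 0.131, 16.4 ± 0.968 and 2.94 ± 0.458 CPM in null layer 6, WT layer 5 and WT layer 6. Neto2 averaged 267 ± 9.42, 158 ± 4.99 and 353 ± 18.1 CPM, and Grik3 113 ± 4.80, 73.0 ± 2.1 and 142 ± 1.99 CPM, in the same order of groups. Cnih3 was lowest in null, with 61.5 ± 1.22 CPM in null, 73.2 ± 3.44 in WT layer 5 and 82.6 ± 1.36 in WT layer 6. Grin2c averaged 3.12 ± 0.525 CPM in null, 2.67 ± 0.372 in WT layer 5 and 1.38 ± 0.109 in WT layer 6, and the libraries of null layer 6 and WT layer 5 overlapped. All values are means ± SD of 4 libraries.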

How the data were processed

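RNA sequencing covered 12 libraries, 4 in each of 3 groups taken from the labels. Per the labels' protocols, each sample was about 25000 sorted tdTomato-positive cells, and libraries were of total RNA, stranded and depleted of ribosomal RNA. Per the submitters' processing notes, the build was mm9 and the tools included STAR 2.5.2b, HTSeq and bedtools. The sources used here give neither the gene annotation nor the strand setting, so reads of genes that overlap on opposite strands may not be separated. The count table deposited by the authors holds whole reads per gene for 24015 genes, all of which entered the library totals, with 0 columns unmatched to a sample. The scores that the authors deposited beside the counts are whole numbers equalised between libraries by unstated steps, and were used only as an alternative for the Grin2a to Grin2b ratio. The TBR1 peak lists are not analysed here.

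Tests on the counts used edgeR 4.0.16 under R 4.3.3 (TMM, filterByExpr by group, quasi-likelihood F-test with limma 3.58.1, the 2 compared groups only), with Benjamini-Hochberg adjustment over all genes tested and a threshold of 0.05. The procedure was tested on simulated counts drawn independently for each library. Libraries here were most alike in pairs, so that simulation cannot check the p-values for such libraries. CPM are TMM-scaled over all 12 libraries, so they can differ slightly from a fold change of a 2-group fit. The precision follows from totals of 27465597 to 54899002 counts a library. Values in every library are given for each member called between null and WT layer 6 and, in the comparisons with layer 5, for the 12 called members with the largest changes at a mean of 5 CPM or more. Some members are not reported here by name but remain in the counts. Of the other genes of glutamatergic transmission, those named are among the 3 with the lowest adjusted p in their subgroup between null and WT layer 6. Alternatives were other size factors, DESeq2 1.42.0, no filter on low counts, a replicate block, summed library pairs, 1 fit of all libraries, each library left out and each layer 5 batch alone. Leaving out each pair of libraries was added after seeing the data. Replicate numbers did not pair libraries between groups (correlation of deviations -0.12 to 0.014). The members and gene lists were chosen with earlier results of these data known.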

Additional observations from a re-analysis of the deposited data

Results flagged for a closer look

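In 3 of 108 groups of 4 libraries, 1 library stood apart by Dixon's criterion for a member's CPM; chance alone marks about 1 in 20 groups. Grm4 had 5.69 CPM in null layer 6 replicate 4, beside 5.42 to 5.43 CPM in the other null libraries, a gap that is small next to the WT layer 6 levels of 2.38 to 3.49 CPM. Grik4 had 19.9 CPM in WT layer 5 replicate 1, beside 15.9 to 16.2 CPM in the other layer 5 libraries. Cacng4 had 47.0 CPM in WT layer 6 replicate 3, beside 45.7 to 45.8 CPM in the other WT layer 6 libraries.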

How the results depend on the processing

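Between null and WT layer 6, summing the paired libraries left 7 members (4 higher, 3 lower) and 479 of all genes called, against 16 and 2068 with 4 libraries a group; this setting has 2 libraries a group, and the cause was not tested beyond that. With each library left out in turn, 13 to 16 members and 1632 to 1838 of all genes were called. DESeq2 called 17 members and 2422 genes, and 1 fit of all 12 libraries 18 and 2659. For WT layer 5 against WT layer 6 the counts with each library left out were 26 to 28 members and 12520.0 to 12850.0 genes, and for null layer 6 against WT layer 5 they were 26 to 28 and 12380.0 to 12688. With layer 5 batch B or C alone, 26 and 26 members were called between WT layers and 26 and 25 between null layer 6 and WT layer 5. The Grin2a to Grin2b ratio differed by 0.16 to 0.27, 1.92 to 2.02 and -1.80 to -1.71 in the 3 comparisons when libraries were left out in turn, and by 0.19, 1.77 and -1.58 in the authors' deposited scores.

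A fit with the replicate number as a block called 12 members and 1526 genes when null and WT layer 6 were compared, 28 and 12675 for WT layer 5 against WT layer 6, and 27 and 12551 for null layer 6 against WT layer 5. The numbers did not pair the libraries, so these counts are given for completeness.

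Leaving out each pair of libraries was chosen after seeing the data. It gave 12 to 15, 27 to 29 and 25 to 28 members called in the 3 comparisons. The sole reversal among the members was Grm2 between WT layer 5 and WT layer 6, at -0.19 without WT layer 6 replicates 1 and 2 (edgeR adjusted p = 0.00342; range over 20 alternatives 0.000279 to 0.958), against 0.035 with all 8 libraries; the cause was not tested. Depth limits Grin3b and Grm6, which had 26 and 2 counts over 12 libraries.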
